A study of Homo sapiens with 6 samples.

Results

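Antioxidant defense in K562 cells was examined through a set of 38 genes around the transcription factor NRF2, chosen by symbol as the regulators of NRF2, the enzymes of glutathione, thioredoxin and peroxide metabolism, the suppliers of NADPH and a few further NRF2 targets. Of these, 37 were matched to a row among the 60671 Ensembl genes counted, and no row was matched to *SOD2*, which was not analysed here. K562 is a chronic myeloid leukemia line with erythroid features, and the cells were 1 clone that carries a Flag-tagged, nuclear form of M.CviPI, an enzyme that methylates GpC sites, joined to Lamin-B1 and switched on by doxycycline. Cultures received either vehicle (DMSO, 0.1% v/v) or the EZH2 inhibitor GSK343 (EZH2i, 1 µM) over 72 hours, and doxycycline at 1 µg/mL was present in both arms during the last 24 hours, so that the controls carried the fusion as well. Each group held 3 libraries from separate cultures, prepared from polyadenylated RNA by 3′ tag sequencing. The comparison asked how transcription changed when EZH2, the methyltransferase that deposits H3K27me3, was inhibited. Reads assigned to genes numbered from 6327544 to 8987768 in the DMSO libraries and from 6926167 to 7913358 in the EZH2i libraries.

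NRF2, encoded by *NFE2L2*, is held at low levels by KEAP1, an adaptor that presents it to a CUL3 ubiquitin ligase. Oxidants and electrophiles modify KEAP1, and NRF2 then enters the nucleus, pairs with a small MAF protein and binds antioxidant response elements in front of genes for glutathione synthesis, thioredoxin reduction, NADPH production and detoxification. BACH1, a heme-binding repressor, occupies the same elements with the same small MAF partners, which ties this program to heme supply in erythroid cells.

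The libraries were not equally alike. Between pairs of DMSO libraries the chi-square per degree of freedom over gene counts was 8.30, 6.32 and 7.05. It was 10.8 and 12.8 between EZH2i replicate 1 and EZH2i replicates 2 and 3, and 4.56 between replicates 2 and 3. EZH2i replicate 1 thus stood apart from its group, and it gave the highest or lowest value of the 6 libraries for 22 of the 35 redox genes tested (62.9%), beside 48.1% over all tested genes. EZH2i replicate 3 had 12.7% of its listed reads on no gene, against 7.43% to 8.51% in the other 5 libraries. The mean share was 8.04% ± 0.534 (SD, n = 3) in DMSO and 9.78% ± 2.55 (SD, n = 3) in EZH2i (exact two-sided permutation p = 0.4, where 0.1 is the smallest possible), and the difference of 1.74 percentage points was 0.279 without EZH2i replicate 3.

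**Figure D1:**
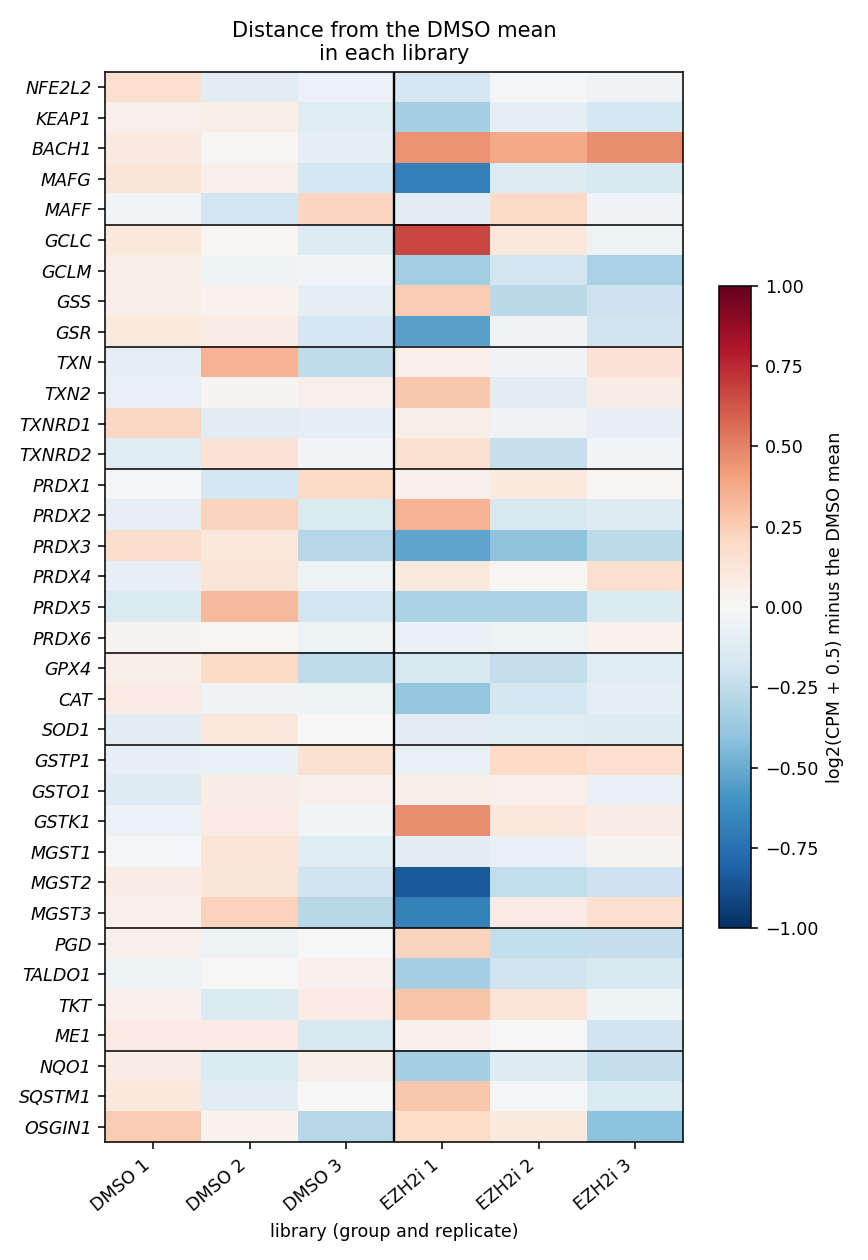
Level of each tested redox gene in each library, as log2(CPM + 0.5) minus the mean of the 3 DMSO libraries (CPM, counts per 1000000 counts on tested genes; red above and blue below the DMSO mean; lines separate roles and groups). EZH2i replicate 1 is the lowest or highest of the 6 libraries for 22 of the 35 genes, while *BACH1* is above the DMSO mean in all 3 EZH2i libraries.

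With EZH2i, *BACH1* was higher, and it was the only gene of the set to pass the test in edgeR's quasi-likelihood fit over all 12364 tested genes (adjusted p under 0.05, hereafter called). Thus 1 of 35 tested redox genes was called (2.86%), against 4.26% of all tested genes (527 genes, and 213, 209 and 240 without DMSO replicate 1, 2 or 3), which is no more than the background. Over all tested genes, 3.34% were called higher. None of the 35 was called lower in this fit, in DESeq2 or in limma-voom, beside 0.922% of all tested genes, while 2 were with no filter on low counts (*PRDX3* and *MGST2*). At an unadjusted p under 0.05 in edgeR, 7 were lower and 1 was higher. These 8 genes are 22.9% of the 35, against 19.1% of all tested genes. Both remaining genes with a row, *SRXN1* and *GPX1*, were under the filter on low counts. In bulk RNA, fewer cells that express a gene and less of its RNA in each cell cannot be told apart.

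The log2 fold changes (EZH2i over DMSO) ran from −0.41 to 0.44, and 18 of 35 (51.4%) lay within 0.1 of 0, compared with 30.6% of all tested genes. The median standard error of the log2 fold change was 0.11 for the set and 0.15 over all tested genes. The set's median log2 fold change was −0.05 (−0.000215 over all tested genes), with 22 of 35 values below 0 (62.9%, against 50.03%). The groups did not overlap for 5 genes, *BACH1* upward and *GCLM*, *CAT*, *MGST2* and *TALDO1* downward, which is 14.3% beside 24.5% of all tested genes. Summed over the 37 genes, the levels, in CPM (counts per 1000000 counts on tested genes, scaled by TMM factors), were 6589.6, 6741 and 6693 in the DMSO libraries and 6464, 6607 and 6571 in the EZH2i libraries. The lowest DMSO sum lay below the highest EZH2i sum, so these totals overlapped.

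**Figure D2:**
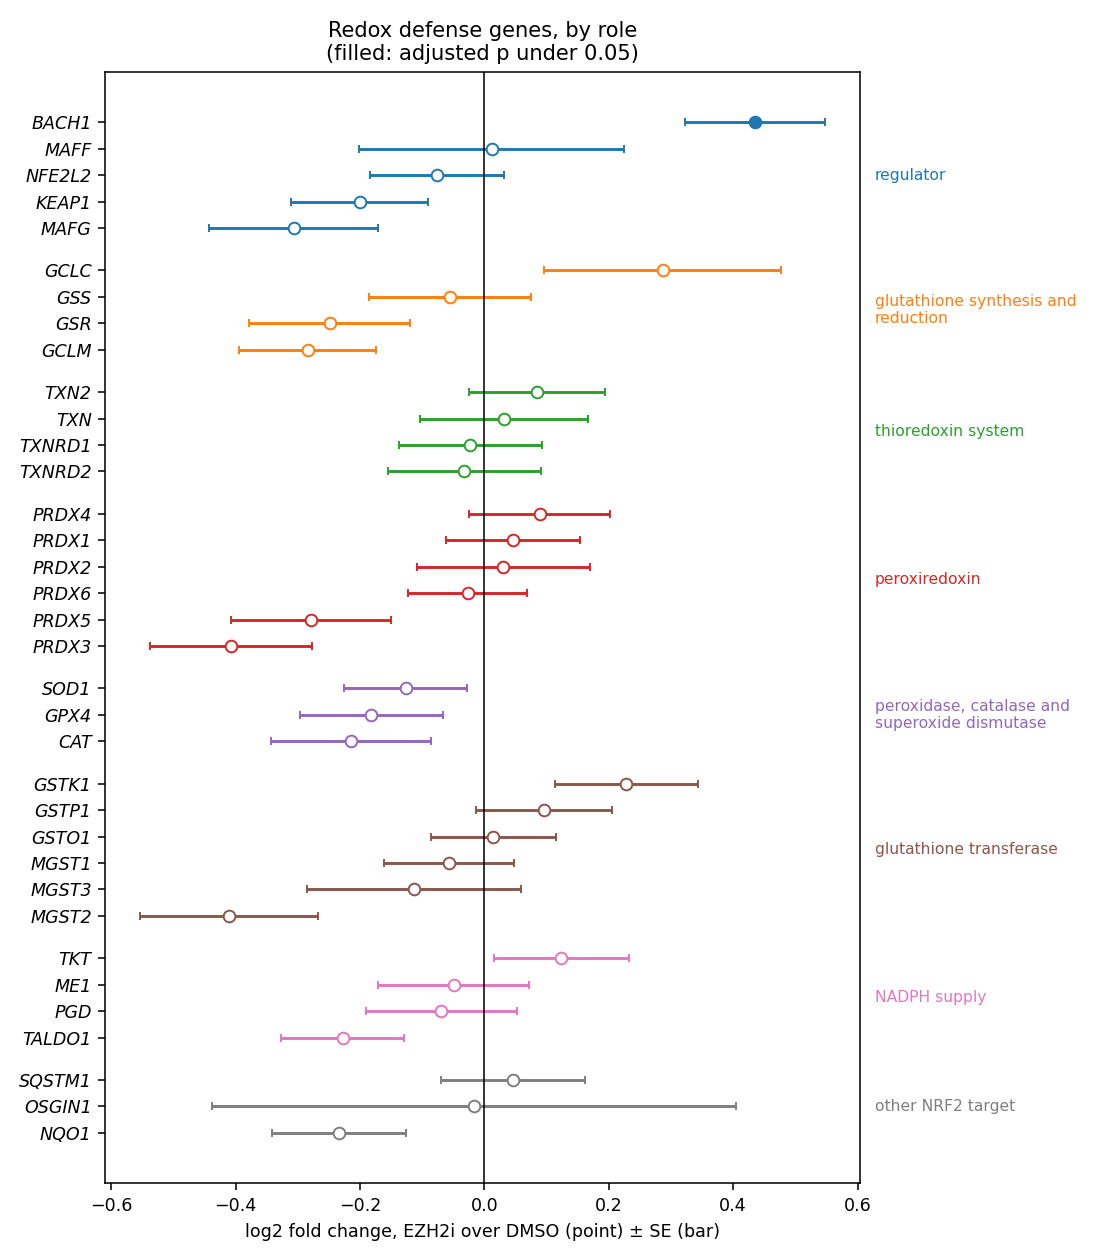
Log2 fold change of each tested redox gene, EZH2i over DMSO (points), with its standard error (bars), grouped by role; n = 3 libraries per group and filled points have an adjusted p under 0.05 in edgeR. *BACH1* at 0.44 is the only filled point, and *MGST2* and *PRDX3*, both at −0.41, are the lowest.

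Among the regulators, *BACH1* (ENSG00000156273, GRCh38 chr21:29194071-29630751) had 44.1, 41.7 and 38.7 CPM in the DMSO libraries and 56.9, 54.0 and 57.3 CPM in the EZH2i libraries. Every EZH2i library was above every DMSO library, and EZH2i replicate 1 did not stand apart here. The means were 41.5 ± 2.71 and 56.0 ± 1.81 CPM (SD, n = 3), a 1.35-fold rise (log2 fold change 0.44, SE 0.11, edgeR adjusted p = 0.0365). The call was narrow. It held without EZH2i replicate 1 (edgeR adjusted p = 0.0386) but not without DMSO replicate 1, 2 or 3 (0.0841, 0.120 and 0.133) or without EZH2i replicate 2 or 3 (0.0677 and 0.0898). It was also lost in DESeq2 (adjusted p = 0.0591), with no filter on low counts (0.0525) and with the replicate block (0.0514). The range was 0.0386 to 0.133 over all alternative fits, while the log2 fold change stayed between 0.39 and 0.48 with any replicate left out. Exons of *LINC00189* and *GRIK1* overlap those of *BACH1*, with 0 and 8 reads in all libraries together, against 2222 on *BACH1*.

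*NFE2L2* itself had 135, 112 and 115 CPM with DMSO and 107, 119 and 117 CPM with EZH2i. The groups overlapped, with DMSO replicate 1 highest and EZH2i replicate 1 lowest, and the log2 fold change was −0.08 (SE 0.11, edgeR adjusted p = 0.752). Exons of *HNRNPA3* and *AGPS* lie on the other strand there, and since the strand setting of the counting is not given in the sources used here, reads of such pairs cannot be told apart. *KEAP1* had 81.6, 82.5 and 72.2 CPM with DMSO and 62.4, 73.4 and 69.6 CPM with EZH2i. EZH2i replicate 1 was lowest and the ranges touched, since EZH2i replicate 2 exceeded DMSO replicate 3 (log2 fold change −0.20, SE 0.11, edgeR adjusted p = 0.332).

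The small MAF gene *MAFG* had 144, 136 and 117 CPM with DMSO and 82.1, 120.3 and 118 CPM with EZH2i. EZH2i replicate 1 was far below the other 5 libraries, and the other EZH2i libraries lay within the DMSO range. Its log2 fold change of −0.31 (SE 0.14, edgeR adjusted p = 0.224) was −0.15 without EZH2i replicate 1, and *SIRT7* shares exonic bases with it on the same strand. *MAFF*, the other small MAF gene listed, was at 6.65 to 8.96 CPM with DMSO and 7.04 to 8.83 CPM with EZH2i, and the ranges overlapped.

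NRF2 and BACH1 recognise the antioxidant response element, whose core is TGACNNNGC. This core was searched on both strands of RefSeq promoters (GRCh38.p14, 250 bases before to 50 bases after each start), together with TGACTCAGC, a stricter form of it that also contains the AP-1 motif. The core was present in 13.3% of all 35116 promoters and the stricter form in 0.561%. Of the 38 genes, 31 had a promoter entry, and 9 of those 31 (29.0%) held the core in at least 1 promoter. The share was 16.1% of all genes with an entry and 19.5% of the tested genes with an entry. The set was chosen in part for its NRF2 targets, and the difference in shares was not tested. The 9 genes were *KEAP1*, *MAFF*, *GCLM*, *TXNRD1*, *GSTP1*, *GSTO1*, *MGST1*, *PGD* and *ME1*. None of the 3 promoters of *BACH1* held it, nor did those of *NFE2L2*, *NQO1* or *GCLC*. The windows below, 1 per gene, are shown because they place the shared element beside the expression values of the same genes. *TXNRD1* holds 3 matches and *KEAP1* and *ME1* 2 each, and the window shown is that of the stricter form for *ME1* and was picked after all were seen for the others. Capitals mark the core, each sequence is written 5′ to 3′ on the strand that carries it, and a match is a description of letters, not a bound site or a cause.
GCLM: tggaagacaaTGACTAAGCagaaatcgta
KEAP1: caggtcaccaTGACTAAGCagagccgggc
TXNRD1: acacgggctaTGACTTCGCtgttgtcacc
GSTP1: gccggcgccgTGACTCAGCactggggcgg
ME1: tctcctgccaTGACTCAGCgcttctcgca
PIR: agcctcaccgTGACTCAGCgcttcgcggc
IDH1: cccctctcgcTGACTCCGCccatcccacg

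The *GCLM* window lies at chr1:93909446-93909474 (plus strand, opposite to the gene), with the core 34 bases upstream of the start. That of *KEAP1* is at chr19:10502784-10502812 (plus strand, opposite to the gene), 31 bases upstream, and that of *TXNRD1* at chr12:104215670-104215698 (plus strand, as the gene), 99 bases upstream. *GSTP1* carries the stricter form at chr11:67583736-67583764 (plus strand, as the gene), 66 bases upstream, and *ME1* at chr6:83431170-83431198 (minus strand, as the gene), 137 bases upstream. *PIR* and *IDH1* are NRF2 targets outside the set, higher and lower with EZH2i. Of the other called genes outside the set, *GGT7* held no core in its promoter and *FTH1* had no promoter entry. *PIR* carries the stricter form at chrX:15493289-15493317 (plus strand, opposite to the gene), 26 bases into the transcribed sequence, and *IDH1* the core at chr2:208255196-208255224 (minus strand, as the gene), 143 bases upstream. The 9 tested redox genes with the core had a median log2 fold change of −0.05 and the 19 tested genes without it −0.03. Over all tested genes with an entry, 4.34% of the 1819 with the core and 4.46% of the 7488 without it were called.

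Glutathione is made by glutamate-cysteine ligase, of which *GCLC* encodes the catalytic and *GCLM* the modifier subunit, and by glutathione synthetase (*GSS*), and it is reduced by *GSR*. None of these 4 genes was called, and 3 of them had a log2 fold change below 0. *GCLM* had 62.4, 57.9 and 58.4 CPM with DMSO and 46.6, 52.5 and 47.6 CPM with EZH2i. All EZH2i libraries lay below all DMSO libraries, and the log2 fold change was −0.28 (SE 0.11, unadjusted p = 0.0195 and adjusted p = 0.159 in edgeR). *GCLC* had 14.9, 14.0 and 12.6 CPM with DMSO and 22.2, 14.9 and 13.3 CPM with EZH2i. EZH2i replicate 1 alone was high, and the log2 fold change of 0.29 (SE 0.19, edgeR adjusted p = 0.437) was 0.04 without it. *GSR* was also set by that library, at 73.5 to 88.5 CPM with DMSO and 56.8, 80.7 and 72.0 CPM with EZH2i (log2 fold change −0.25, and −0.12 without EZH2i replicate 1). *GSS* went the other way, with 109 CPM in EZH2i replicate 1 and 75.8 and 79.3 CPM in the others, against 85.7 to 95.7 CPM with DMSO (log2 fold change −0.06, and −0.24 without that library).

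All 4 tested thioredoxin genes lay within 0.1 of 0 on the log2 scale. *TXNRD1*, the cytosolic thioredoxin reductase, had 85.1, 68.0 and 68.9 CPM with DMSO and 76.8, 71.7 and 69.5 CPM with EZH2i. The EZH2i values all fell within the DMSO range (log2 fold change −0.02, SE 0.11, edgeR adjusted p = 0.942). *TXN*, *TXN2* and *TXNRD2* had log2 fold changes of 0.03, 0.08 and −0.03, with overlapping groups. *SRXN1*, which encodes sulfiredoxin, had 0 reads in every library, which would allow up to 0.469 CPM in the shallowest of them. Its exons overlap those of an unnamed gene on the same strand, also with 0 reads. Whether this 0 reflects the level of the RNA or the way reads were counted was not resolved.

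Peroxiredoxins reduce hydrogen peroxide, and 4 of the 6 genes (*PRDX1*, *PRDX2*, *PRDX4* and *PRDX6*) had log2 fold changes between −0.03 and 0.09. *PRDX3*, the mitochondrial form, had 74.9, 71.7 and 54.6 CPM with DMSO and 45.9, 50.2 and 55.3 CPM with EZH2i. DMSO replicate 3 was at the level of the EZH2i libraries, so the groups overlapped. The log2 fold change was −0.41 (SE 0.13) with edgeR adjusted p = 0.0890, and without DMSO replicate 3 the fold change was −0.54 and the gene was called (edgeR adjusted p = 0.0447), as it was with no filter on low counts (0.0265), the range over all alternatives being 0.0265 to 0.307. *PRDX5* had 130.0, 179.5 and 126 CPM with DMSO and 115, 115 and 129.8 CPM with EZH2i. DMSO replicate 2 alone was high, and the log2 fold change of −0.28 (SE 0.13, edgeR adjusted p = 0.246) was −0.10 without it. Summed over the 6 peroxiredoxins the levels were 1499, 1498 and 1560.3 CPM with DMSO and 1494, 1493 and 1507 CPM with EZH2i. These sums overlapped, with DMSO replicate 3 the highest.

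Among the enzymes that act on superoxide and peroxides, *SOD1*, *GPX4* (which reduces lipid hydroperoxides) and *CAT* (catalase) had log2 fold changes of −0.13, −0.18 and −0.21, all below 0 and none called (lowest edgeR adjusted p = 0.380). Without DMSO replicate 2 *SOD1* was at −0.07 and *GPX4* at −0.08, *GPX4* was at −0.30 without DMSO replicate 3, and *CAT* was at −0.13 without EZH2i replicate 1. *CAT* had 36.9, 34.1 and 33.8 CPM with DMSO and 26.5, 30.9 and 32.8 CPM with EZH2i. Its groups did not overlap, although EZH2i replicate 3 came close to the lowest DMSO library. *GPX1* had 3 reads in all, 1 in DMSO replicate 3 and 2 in EZH2i replicate 3, too few for a fold change, and as for *SRXN1* the way reads were counted may explain so low a count. Summed, these enzymes were at 792, 900 and 793 CPM with DMSO and 750, 742 and 756 CPM with EZH2i, lower in every EZH2i library. This rested on *SOD1*, the most abundant of them, since the sums without it overlapped (256, 272 and 210 CPM with DMSO and 214, 208 and 226 CPM with EZH2i), as did the sums of each other role in the set.

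The glutathione transferases conjugate glutathione to electrophiles. *GSTP1* had the most reads of the 37 genes, at 1103, 1112 and 1295 CPM with DMSO and 1107, 1337 and 1306 CPM with EZH2i, and 3′ tag counts are not divided by transcript length. Its groups overlapped (log2 fold change 0.10, SE 0.11, edgeR adjusted p = 0.691), and with a replicate left out the value ran from 0.04 (EZH2i replicate 2) to 0.18 (EZH2i replicate 1). *MGST2*, a microsomal transferase, had 255, 263 and 211 CPM with DMSO and 135, 204 and 209 CPM with EZH2i. All EZH2i libraries were below all DMSO libraries, but replicate 1 was far lower than the others, and the log2 fold change of −0.41 (SE 0.14, edgeR adjusted p = 0.117) was −0.23 without it. With no filter on low counts *MGST2* was called (edgeR adjusted p = 0.00686, the lowest of its alternatives, the highest being 0.344). *MGST3* had its lowest value in the same library, 109 CPM against 184 and 194 CPM in the other EZH2i libraries and 144 to 204 CPM with DMSO, and its log2 fold change turned from −0.11 to 0.11 without that library (0.01 without DMSO replicate 2, and −0.24, −0.22 and −0.26 without DMSO replicate 3 and EZH2i replicates 2 and 3). *GSTK1* had its highest value there, 294 CPM against 229 and 224 CPM in the other EZH2i libraries and 204 to 225 CPM with DMSO (log2 fold change 0.23, and 0.09 without it). *GSTO1* and *MGST1* had log2 fold changes of 0.01 and −0.06.

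NADPH for glutathione and thioredoxin reduction comes in part from the pentose phosphate pathway. *TALDO1*, the transaldolase gene, had 202, 208 and 214 CPM with DMSO and 165, 181 and 187 CPM with EZH2i. The groups did not overlap (log2 fold change −0.23, SE 0.10, unadjusted p = 0.0342 and adjusted p = 0.216 in edgeR). *PGD* and *TKT* had log2 fold changes of −0.07 and 0.12, and both had their highest value in EZH2i replicate 1, while malic enzyme *ME1* was at −0.05. Without that library *PGD* was at −0.24 and *TKT* at 0.04, and *TKT* was at 0.06 without DMSO replicate 2 and 0.20 without EZH2i replicate 3.

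*NQO1*, a quinone reductase often used as a readout of NRF2 activity, had 93.1, 80.5 and 92.1 CPM with DMSO and 70.2, 80.7 and 74.8 CPM with EZH2i. EZH2i replicate 2 just exceeded DMSO replicate 2, so the groups overlapped (log2 fold change −0.23, SE 0.11, unadjusted p = 0.0440 and adjusted p = 0.245 in edgeR). *SQSTM1*, whose protein p62 binds KEAP1, was at 131 to 151 CPM with DMSO and 127 to 169 CPM with EZH2i, with exons of *MGAT4B* and *MRNIP* on the other strand. *OSGIN1* was near the filter at 1.00 to 1.88 CPM over all libraries, and its exons overlap those of *MLYCD* on the same strand.

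**Figure D3:**
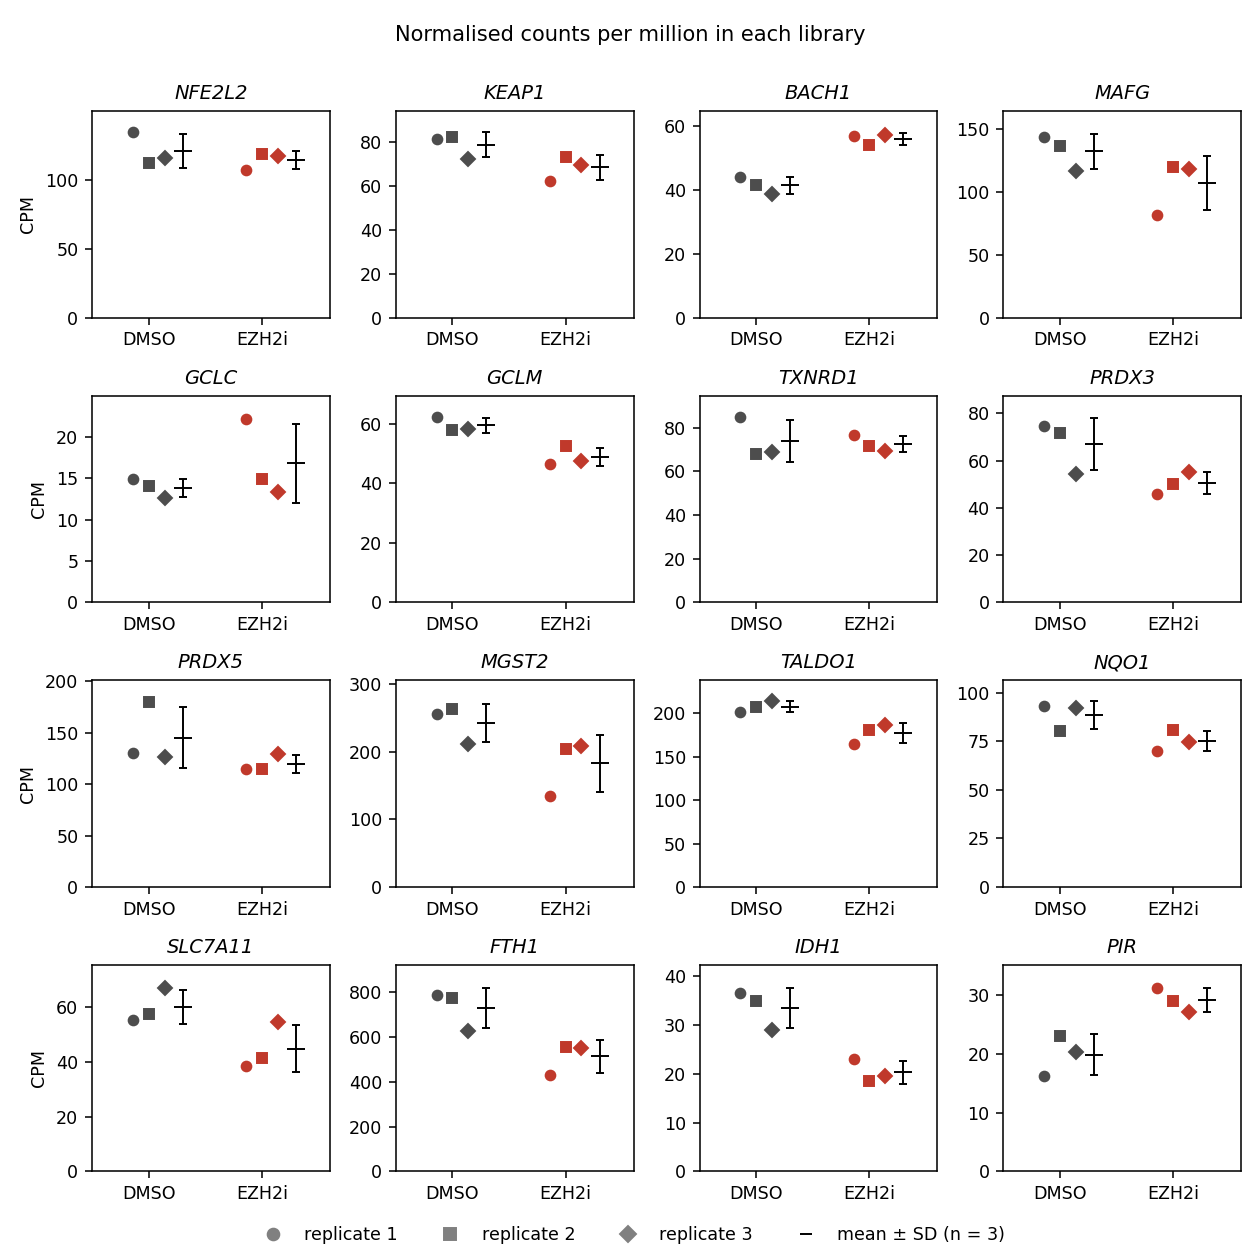
CPM (y axes, from 0) of 12 redox genes and 4 related genes in each DMSO (grey) and EZH2i (red) library, with the mean and SD of the 3 libraries of a group (black). *BACH1* lies at 38.7 to 44.1 CPM with DMSO and 54.0 to 57.3 CPM with EZH2i, and *MAFG*, *GCLC* and *MGST2* each have 1 EZH2i library, replicate 1, away from the others.

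Genes of the same pathways outside the set were read from 6 further lists. Counting each gene once, 73 of 99 were tested and 4 were called (5.48%), 2 higher (*PIR* and *GGT7*) and 2 lower (*FTH1* and *IDH1*), beside the 4.26% of all tested genes. *FTH1*, the ferritin heavy chain that stores iron in a form unable to drive peroxide chemistry, had 787, 772 and 626 CPM with DMSO and 429, 555 and 551 CPM with EZH2i. All EZH2i libraries were lower, replicate 1 most. The fall to 0.703 of the DMSO level (log2 fold change −0.51, SE 0.12, edgeR adjusted p = 0.0252) was also called without EZH2i replicate 1 (log2 fold change −0.39, edgeR adjusted p = 0.0365), but not without DMSO replicate 1 or 2 (0.120 and 0.118, the highest values over all alternatives, of which the lowest was 9.51e-05). *FTH1* has 25 named pseudogenes among the genes counted, with 84 reads together against 28470 on *FTH1*, and reads that map to several places were left out by the counting. *FTL*, the light chain, was at 1817 to 1878 CPM with DMSO and at 2026, 1559 and 1566 CPM with EZH2i, where replicate 1 again lay apart (log2 fold change −0.11, edgeR adjusted p = 0.645, and −0.25 without that library, but −0.05 without EZH2i replicate 2 or 3).

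*IDH1*, the cytosolic isocitrate dehydrogenase that makes NADPH, had 36.4, 34.9 and 28.8 CPM with DMSO and 22.9, 18.4 and 19.5 CPM with EZH2i. The groups were well separated, and the log2 fold change was −0.72 (SE 0.14, edgeR adjusted p = 0.00974). It was called in all alternative fits except those without DMSO replicate 1 or 2 (edgeR adjusted p = 0.0589 and 0.0555, against a lowest value of 0.000183). *IDH2*, its mitochondrial counterpart, had 143, 147 and 136 CPM with DMSO and 173, 179 and 168 CPM with EZH2i. All EZH2i libraries were higher, but the gene was not called (log2 fold change 0.29, SE 0.10, edgeR adjusted p = 0.109). *PIR*, which encodes the iron-binding protein pirin, had 16.3, 23.2 and 20.3 CPM with DMSO and 31.3, 29.1 and 27.2 CPM with EZH2i. Its groups did not overlap (log2 fold change 0.54, SE 0.15, edgeR adjusted p = 0.0467), and the call was lost without any 1 of the 6 libraries (0.0579 to 0.196) in DESeq2 (0.0866) and with at least 10 counts in every library (0.0539), the lowest value over all alternatives being 0.0277.

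*GGT7*, of the gamma-glutamyltransferase family, had 7.04, 6.53 and 7.04 CPM with DMSO and 15.0, 11.2 and 10.2 CPM with EZH2i. EZH2i replicate 1 was highest and all EZH2i libraries were above all DMSO libraries (log2 fold change 0.82, SE 0.20, edgeR adjusted p = 0.0312). Without EZH2i replicate 1 it was 0.64 and not called (edgeR adjusted p = 0.0955), nor was it called without DMSO replicate 1, 2 or 3 (0.0932, 0.122 and 0.0853) or in DESeq2 (0.0682), with 0.00890 the lowest value over the alternatives. *SLC7A11*, the cystine transporter subunit that feeds glutathione synthesis, had 55.4, 57.5 and 67.0 CPM with DMSO and 38.5, 41.4 and 54.4 CPM with EZH2i. Its groups did not overlap, although EZH2i replicate 3 lay just under DMSO replicate 1. It was not called (log2 fold change −0.43, SE 0.14, edgeR adjusted p = 0.0894), but was without EZH2i replicate 3 (edgeR adjusted p = 0.0254) and with no filter on low counts (0.0236), with 0.0236 to 0.271 over all alternatives. *HMOX1*, which encodes the heme oxygenase that BACH1 represses, had 0 reads in every library, with the same limit and the same doubt as *SRXN1*.

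Taken list by list, none of the 8 other genes of KEAP1-NRF2 control was called in edgeR, DESeq2 or limma-voom (1 had an unadjusted p under 0.05), and their log2 fold changes ran from −0.05 (*CUL3*) to 0.42 (*NFE2L3*), with a median of 0.19. Their sum was higher in every EZH2i library (444, 483 and 457 CPM, against 430, 424 and 432 CPM with DMSO). It overlapped without *RBX1*, although *RBX1* itself had a log2 fold change of −0.01, with its highest value, 149 CPM, in EZH2i replicate 1. *NFE2L3* was at 0.26 without EZH2i replicate 1, and with 250 reads in all it overlaps exons of *HNRNPA2B1* on the other strand, which drew 38380. *BACH2*, the paralog of *BACH1*, was at 72.2 to 74.3 CPM with DMSO and at 71.7, 98.4 and 95.2 CPM with EZH2i. EZH2i replicate 1 was at the DMSO level and the other EZH2i libraries were above it (log2 fold change 0.27, edgeR adjusted p = 0.223). Without EZH2i replicate 1 it was called (log2 fold change 0.41, edgeR adjusted p = 0.0206, the lowest over its alternatives, up to 0.498). Among 29 further NRF2 targets 20 were tested, with *FTH1* and *IDH1* called lower, *PIR* called higher (15.0%, against 4.26% of all tested genes) and a median log2 fold change of −0.04. Without DMSO replicate 1 or 2 this list held 0 calls. *GGT7* was the only call among 18 tested genes of glutathione handling (5.56%, median 0.03), and the list held 0 calls in DESeq2 and without DMSO replicate 1, 2 or 3 or EZH2i replicate 1. The 29 matched genes of this list summed to 1349, 1351 and 1334 CPM with DMSO and 1250, 1299 and 1284 CPM with EZH2i, lower in every EZH2i library, but without *GGCT* alone the sums overlapped, and 9 of the 18 tested genes had a log2 fold change below 0. *GGCT*, the gamma-glutamylcyclotransferase gene, had the lowest log2 fold change of this list, at 176, 216 and 180 CPM with DMSO and 106, 158 and 164 CPM with EZH2i. Its groups did not overlap, and EZH2i replicate 1 was lowest (log2 fold change −0.42, and −0.24 without it). It was not called (edgeR adjusted p = 0.106), but was with the replicate block (0.0386) and with no filter on low counts (0.00715, where *GPX8*, at 26 reads in all, was called higher), its highest value over all alternatives being 0.363. No gene was called among 11 tested genes of peroxide and thiol repair, from *SESN2* (−0.22) to *SESN3* (0.44), or among 7 of selenoprotein synthesis, from *TRNAU1AP* (−0.40) to *PSTK* (0.04), and at an unadjusted p under 0.05 in edgeR these lists held 3 and 1 genes (27.3% and 14.3%, against 19.1% of all tested genes). DESeq2 and limma-voom also called 0 genes in both. The sum of the selenoprotein synthesis genes was lower in every EZH2i library (239, 267 and 265 CPM, against 305, 279 and 275 CPM with DMSO) but overlapped without *SECISBP2*, and the sums of the other related lists overlapped. *SESN2* was at −0.37 without DMSO replicate 2 and −0.05 without DMSO replicate 3, and exons of *SNHG12* and *IKZF5* overlap those of *TRNAU1AP* and *PSTK* on the other strand. Of 11 tested NADPH genes outside the set, *IDH1* was the only call (9.09%), and there was none without DMSO replicate 1 or 2.

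**Figure D4:**
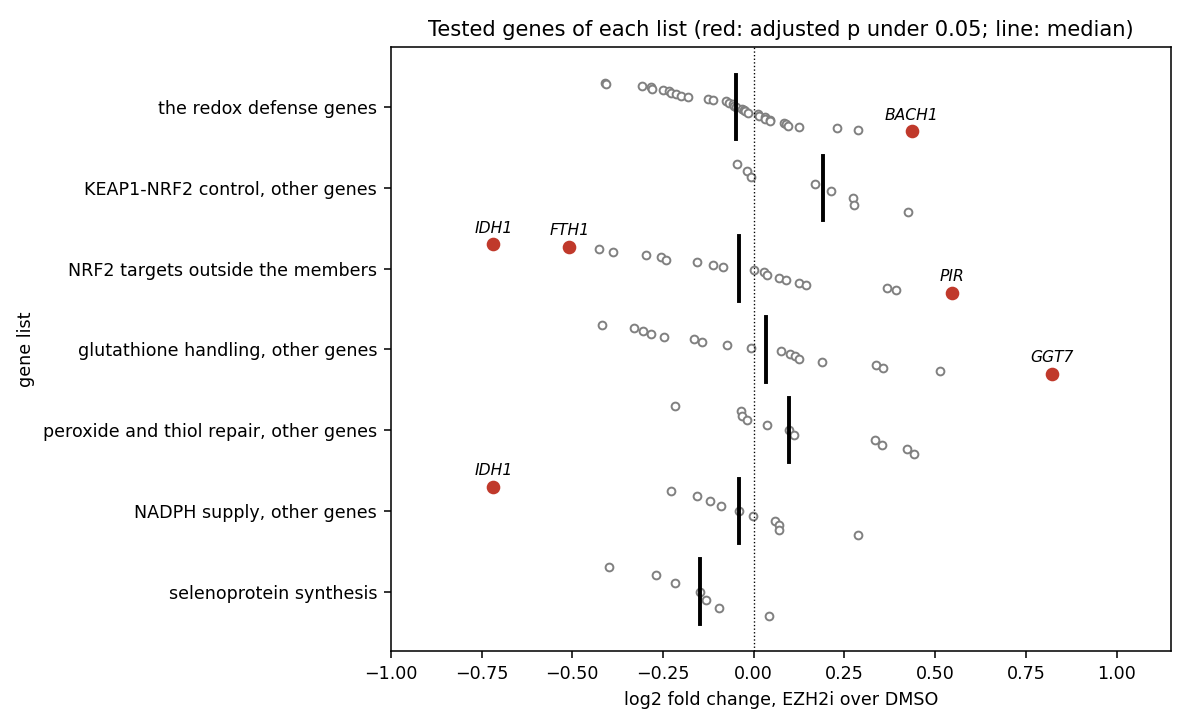
Log2 fold change, EZH2i over DMSO, of each tested gene of the redox set and of the 6 related lists (points; red with an adjusted p under 0.05 in edgeR; thick lines are medians; *IDH1* stands in 2 lists). The called genes are *BACH1*, *PIR* and *GGT7* above 0 and *FTH1* and *IDH1* below 0, and the medians lie between −0.15 and 0.19.

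The libraries carried the erythroid genes of K562 cells in both groups. Summed over 10 erythroid markers the levels were 949.9, 847 and 835 CPM with DMSO and 910.3, 899.7 and 859 CPM with EZH2i, led by *TFRC*. These sums overlapped between groups. Of 9 tested markers 1 was called, *HBG2* (11.1%, against 4.26% of all tested genes). Its log2 fold change was 0.58 (edgeR adjusted p = 0.0251, but 0.0724, 0.138 and 0.0624 without DMSO replicate 1, 2 or 3). Exons of *OR51B5* overlap those of *HBG2* on the same strand, with 2402 reads in all libraries together, against 5346 on *HBG2*. *HBG1* went the other way and was not called (log2 fold change −0.39, edgeR adjusted p = 0.444), and *HBE1*, with 23 reads in all, was under the filter. Over 7 B and T cell markers the sums were 63.0, 66.4 and 75.3 CPM with DMSO and 105, 86.3 and 89.2 CPM with EZH2i, higher in every EZH2i library. Nearly all of this was *CD3D* (58.3 to 69.9 CPM with DMSO and 81.5 to 99.0 CPM with EZH2i), called higher at edgeR adjusted p = 0.0309 but not without DMSO replicate 1, 2 or 3 (0.148, 0.120 and 0.0510) or EZH2i replicate 1 (0.0519). Of the others, *MS4A1* was at 0 and *CD4* and *CD79A* had 1 and 6 reads in all libraries together, and 2 of the 7 were tested. Over 7 epithelial and fibroblast markers the sums were 77.6, 85.4 and 75.6 CPM with DMSO and 69.9, 73.3 and 70.2 CPM with EZH2i. *EPCAM* made up most of these sums, which were lower in every EZH2i library. Without *EPCAM* the sums were higher in every EZH2i library (5.82, 6.68 and 9.02 CPM, against 1.41, 1.90 and 2.84 CPM with DMSO). *KRT5* and *LUM* were at 0. *COL1A1* was 1 of 2 tested markers and the only call, at 1.25, 1.31 and 2.16 CPM with DMSO and 4.06, 6.18 and 7.88 CPM with EZH2i (log2 fold change 1.91, edgeR adjusted p = 0.00424). All EZH2i values of *COL1A1* exceeded the DMSO values. The part of these markers in the redox values was not tested.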

How the data were processed

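The authors counted 3′ tag reads (QuantSeq FWD) per Ensembl gene, and these deposited raw counts were the only values used; the submitters' processing notes name STAR 2.6.0c, HTSeq 0.11.2 and GRCh38. A deposited table of the authors' own DESeq2 comparison, with fold changes and p-values, was not used. Rows that name no gene (7.43% to 12.7% of listed reads on no gene, 21.4% to 22.3% not unique, 2.25% to 2.48% ambiguous) were left out. Symbols came from GENCODE 44. The 3 DMSO and 3 EZH2i libraries were compared in R 4.3.3 with edgeR 4.0.16 (filterByExpr with a minimum count of 10, TMM, two-sided quasi-likelihood test, Benjamini-Hochberg over 12364 genes, threshold 0.05), after the code was tested on simulated counts. In the simulated counts edgeR called 47.1% of the genes changed 1.5-fold and 75.8% of those changed 2-fold. A gene that was not called may therefore still have changed. CPM used TMM-scaled library sizes. Alternatives used RLE factors, DESeq2 1.42.0, limma 3.58.1, other filters, a replicate block, single libraries left out and a threshold of 0.01. Limits for counts of 0 use 3 reads and cover counting error only. The genes, lists and naming rule (called genes, genes of the set at an unadjusted p under 0.05, main pathway genes, and the lowest and highest of a related list without calls) were chosen with earlier results of these data known. *BACH2*, *CAT*, *FTL*, *GGCT*, *GPX8*, *GSR*, *GSS*, *GSTK1*, *GSTP1*, *IDH2*, *MGST3*, *PGD*, *RBX1* and *SECISBP2* were added after their values were seen. Of the genes that the rule names, 1 is not reported here.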

Additional observations from a re-analysis of the deposited data

How the results depend on the processing

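The count of called genes over all tested genes, 527, was 928 with no filter on low counts, 148 at an adjusted p under 0.01 and 209 to 536 with a replicate left out, when fewer samples are fitted. The 1 call among the redox genes, *BACH1*, became 0 in DESeq2, 0 with the replicate block, 0 at an adjusted p under 0.01 and 0 to 1 with a replicate left out, in number of genes called higher. With no filter on low counts 0 redox genes were called higher and 2 lower (*PRDX3* and *MGST2*), and 0 to 1 were called lower with a replicate left out. Of the related genes, 4 were called in edgeR as set, 2 in DESeq2, 7 with no filter, 1 at an adjusted p under 0.01 and 0 to 4 with a replicate left out. Libraries with the same replicate number shared little of their deviation from the group means (correlations −0.0511, −0.0176 and −0.0170). These values cannot tell whether the cultures were paired. The replicate block called 599 genes in all. The median log2 fold change of the redox genes was −0.073 with no filter and −0.10 to −0.015 with a replicate left out. Of 35 tested redox genes 19 kept the sign of their log2 fold change in all fits. With a replicate left out the sign turned, without a call, for *NFE2L2* (−0.13 to 0.0062), *MAFF* (−0.093 to 0.14), *GSS* (−0.24 to 0.043), *TXN* (−0.093 to 0.23), *TXN2* (−0.014 to 0.17), *TXNRD1* (−0.079 to 0.084), *TXNRD2* (−0.13 to 0.061), *PRDX1* (−0.038 to 0.15), *PRDX2* (−0.15 to 0.15), *GSTO1* (−0.049 to 0.057), *MGST1* (−0.12 to 0.014), *MGST3* (−0.26 to 0.11), *PGD* (−0.24 to 0.011), *ME1* (−0.13 to 0.020), *SQSTM1* (−0.076 to 0.13), *OSGIN1* (−0.20 to 0.18), *CUL3* (−0.15 to 0.043) and *PSTK* (−0.068 to 0.18). *MAFF* was at −0.0047 in DESeq2 and −0.011 with no filter, and *GSTO1* at −0.0028 and −0.0087. The cause of these differences was not tested. Leaving out each library for the share of reads on no gene was chosen after seeing the data. With 3 libraries per group, low counts limit genes near the filter, such as *OSGIN1* (log2 fold change −0.02, SE 0.42).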
